A study of Mus musculus with 12 samples.

Results

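The genes described here are 8 transcription factors that act after T cell receptor signaling: the NFAT genes Nfatc1, Nfatc2 and Nfatc3, the NR4A genes Nr4a1, Nr4a2 and Nr4a3, and Irf4 and Batf. They were chosen by symbol and are 8 of the 35855 genes to which transcripts of the deposited RNA sequencing libraries could be joined. The libraries come from a mouse model of allogeneic stem cell transplantation, in which donor T cells from C57BL/6-background mice attack BALB/c hosts. The 12 libraries form 4 groups of 3, with CD8 T cells of WT and of TCF-1 cKO mice taken pre-transplant, and donor CD8 T cells of either genotype recovered from recipient spleens at day 7 post-transplant. All donors had a C57BL/6 background. Pre-transplant cells were sorted from the spleens of mice that had received no transplant. Post-transplant cells had been given to lethally irradiated BALB/c recipients together with WT bone marrow from which T cells had been removed. They were sorted back as H2Kb+ cells, the MHC allele of the donor. The study's text names the transplanted cells as CD3 T cells, and a figure legend describes CD8 T cells sorted for the transplant. TCF-1 cKO mice carry a floxed Tcf7 gene and a Cre transgene driven by the CD4 promoter, so that deletion starts at the double-positive stage of the thymus and takes in CD4 and CD8 T cells alike. Whether the WT donors of these libraries carried the Cre is not given in the labels.

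In a T cell, antigen raises calcium, the phosphatase calcineurin removes phosphates from NFAT proteins, and NFAT then enters the nucleus, where it pairs with AP-1 factors to switch on cytokine genes. Without enough AP-1, NFAT turns on genes of the exhausted state, among them the NR4A orphan nuclear receptors, which are also immediate early genes of T cell receptor signaling. IRF4 rises with the strength of that signal and binds DNA together with BATF, an AP-1 family protein with no activation domain of its own, and the pair is needed for effector CD8 T cells to expand and change their metabolism.

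Library totals lay between 4520270 and 32657005 estimated counts. The lowest were those of the TCF-1 cKO pre-transplant group, with 4520270 to 9577076. The smallest level a library could show was taken as 3 counts. On the scale of library totals, without TMM factors, 3 counts correspond to 0.0919 to 0.664 CPM. The gene levels in CPM carry TMM factors, so this floor is not on their scale. Levels are given as CPM, estimated counts relative to library size scaled with TMM factors over the 12 libraries, and as TPM, which is also scaled for length, wherever genes are set against each other. Changes are log2 fold changes with their SE from edgeR's quasi-likelihood test, and a gene was called when its Benjamini-Hochberg adjusted p over all genes tested was below 0.1. Nothing in the labels says whether the 3 post-transplant libraries of a group came from separate recipients, so p-values there measure the spread between libraries. In these bulk libraries fewer cells of a type and less RNA per cell cannot be told apart.

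The pre-transplant libraries went against their label as sorted CD8 T cells. The 10 genes of the B cell list, all with 3 counts or more in every library, summed to 4989 to 6539 CPM in WT and 2498 to 4802 CPM in TCF-1 cKO before transplant, against 50.4 to 125 and 49.5 to 79.6 CPM at day 7. The 8 genes of the CD8 T cell list ran the other way, with 1691 to 1844 CPM in WT and 492 to 936 CPM in TCF-1 cKO before transplant and 10181 to 17019 and 10243 to 12037 CPM at day 7. Myeloid markers summed to 887 to 3176 CPM before transplant and 188 to 770 CPM at day 7, and no gene of these 3 lists was at 0 in all libraries of a group. Cd4 was at 22.8 to 110 CPM before transplant and 1.25 to 7.00 CPM at day 7. The library of TCF-1 cKO post-transplant replicate 2 is called CD4 in 1 label and CD8 in its title, and its Cd4 level, 2.04 CPM, was the lowest of its group. Tcf7, the targeted gene, was lower in TCF-1 cKO before transplant, at 26.2, 34.1 and 62.7 CPM against 117, 76.0 and 166 CPM, without passing the test (log2 fold change −1.36, SE 0.46, edgeR adjusted p = 0.223). At day 7 Tcf7 was at 14.6, 13.6 and 14.1 CPM in TCF-1 cKO and at 26.9, 26.4 and 10.7 CPM in WT, so that replicate 3 of the group labelled WT had less Tcf7 than any TCF-1 cKO library. The labels do not tell whether that library was exchanged with another, and the WT post-transplant means and the day 7 comparison include it.

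**Figure D1:**
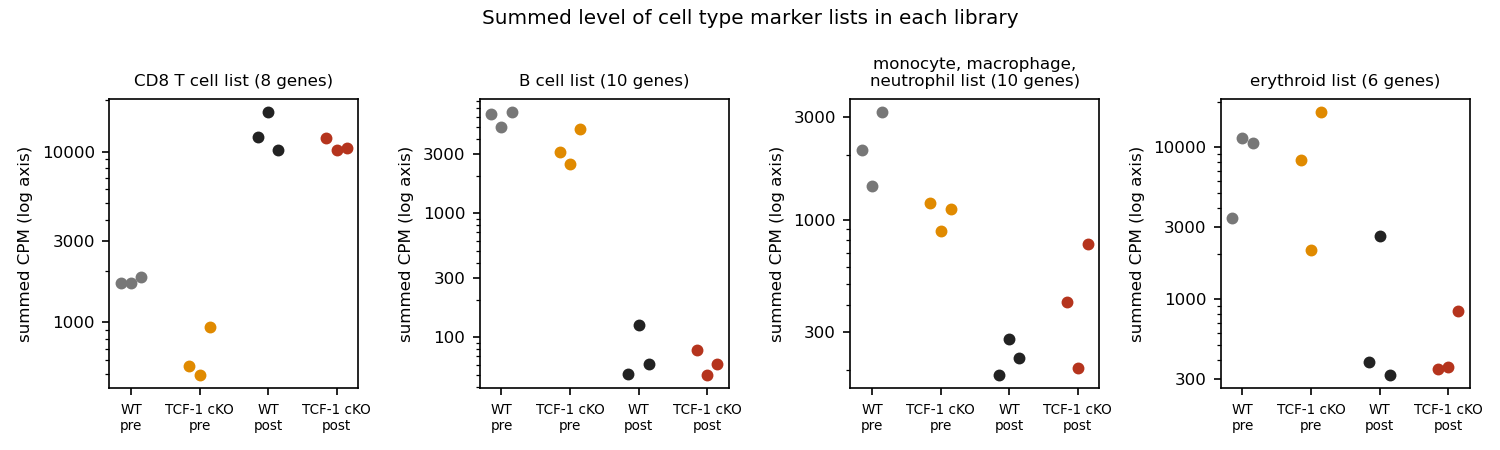
Summed CPM (log axis) of 4 marker lists in each of the 12 libraries, 1 point per library, grouped by genotype and stage. B cell, myeloid and erythroid sums were higher before transplant, where the CD8 T cell list summed to 492 to 1844 CPM against 10181 to 17019 CPM at day 7.

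Per length, the order of the 8 genes differed between the stages. In WT cells before transplant Nfatc1 (81.5 ± 21.4 TPM, SD, n = 3), Batf (72.1 ± 12.3), Nr4a1 (51.6 ± 30.9) and Nfatc3 (38.9 ± 9.77) led, and each overlapped with the next in the range of its libraries. Irf4 (17.3 ± 2.24 TPM) and Nfatc2 (14.8 ± 2.66 TPM) overlapped with each other and lay below Nfatc3 without overlap, and Nr4a3 and Nr4a2 were lowest at 1.20 and 0.914 TPM. In WT cells at day 7 Batf stood far above the rest at 488 ± 102 TPM, higher than 98.4% of the 21526 genes kept over the 12 libraries, followed by Nfatc1 at 14.98 ± 5.14 TPM and Nr4a1 at 7.05 ± 3.31 TPM. TCF-1 cKO cells at day 7 had Batf at 645 ± 93.9 TPM, Nfatc3 at 4.47 ± 0.728 TPM and Nfatc1 at 3.54 ± 1.83 TPM, and the other 5 genes lay between 0.768 and 1.51 TPM.

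**Figure D2:**
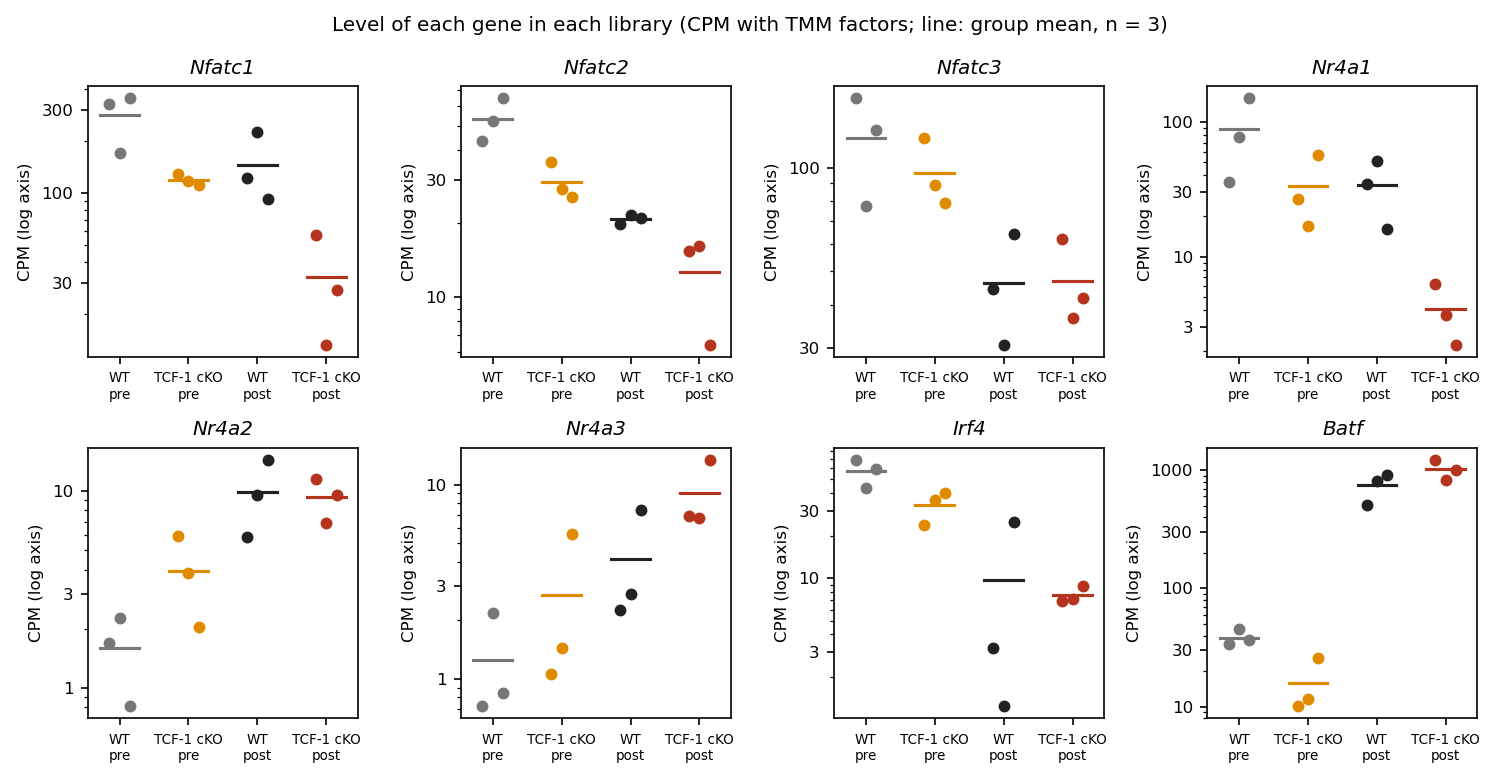
CPM with TMM factors (log axis) of the 8 genes in each library, with a line at the mean of the 3 libraries of a group. Batf rose from 10.2 to 45.0 CPM before transplant to 511 to 1224 CPM at day 7, while Nr4a1 was lowest in the 3 TCF-1 cKO post-transplant libraries, at 2.22 to 6.30 CPM.

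Nfatc1 was the NFAT gene that differed most between the genotypes at day 7. Nfatc1 (ENSMUSG00000033016) is the inducible member of the family, whose own transcription is raised by NFAT. Its levels were 121, 224 and 92.4 CPM in the WT post-transplant libraries and 57.1, 13.2 and 27.2 CPM in the TCF-1 cKO ones, with no overlap. The TCF-1 cKO level was 5.63-fold lower (log2 fold change −2.49, SE 0.65, edgeR adjusted p = 0.0498). Before transplant the values were 327, 170 and 353 CPM in WT and 128, 117 and 111 CPM in TCF-1 cKO, which did not overlap either, but the change of −1.01 (SE 0.43) did not pass (adjusted p = 0.264). From before transplant to day 7 Nfatc1 fell in TCF-1 cKO cells by 1.88 on the log2 scale (SE 0.52, adjusted p = 0.0237), a call that ended with the offsets for GC content given further on (adjusted p = 0.157 and 0.139). In WT cells the change was −1.21 (SE 0.53) and missed the threshold (adjusted p = 0.166), and libraries of the stages overlapped.

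Nfatc2 and Nfatc3, which are present in resting T cells, were called between the stages and not between the genotypes. Nfatc2 (ENSMUSG00000027544, GRCm38 chromosome 2, 168476410 to 168601657, minus strand) was at 43.4, 52.3 and 64.7 CPM in WT before transplant and 19.8, 21.6 and 21.0 CPM at day 7. In TCF-1 cKO cells it was at 35.5, 27.6 and 25.7 CPM before and 15.5, 16.1 and 6.43 CPM after. It fell by 1.61 (SE 0.52, adjusted p = 0.0638) in WT and by 1.24 (SE 0.47, adjusted p = 0.0775) in TCF-1 cKO, and both calls ended when any 1 library was left out. With the same offsets the change in TCF-1 cKO was −0.33 and −0.26 (adjusted p = 0.646 and 0.727). Nfatc3 (ENSMUSG00000031902, chromosome 8, 106058840 to 106130537, plus strand) was at 159, 77.3 and 128 CPM in WT before transplant and 44.4, 30.7 and 64.0 CPM at day 7, a fall of 1.65 (SE 0.53, adjusted p = 0.0656). In TCF-1 cKO cells Nfatc3 went from 121, 88.9 and 79.1 CPM to 62.0, 36.5 and 41.7 CPM, a fall of 1.06 (SE 0.38, adjusted p = 0.0643). The call of Nfatc3 ended without WT pre-transplant replicate 1 or 3 or post-transplant replicate 1 or 2 (adjusted p up to 0.286), and without TCF-1 cKO pre-transplant replicate 1 or 2 or post-transplant replicate 2 or 3 (up to 0.227). The stages did not overlap for either gene in either genotype. Between genotypes at day 7 Nfatc2 differed by −0.96 (SE 0.52, adjusted p = 0.259) without overlap, and Nfatc3 by −0.23 (SE 0.45, adjusted p = 0.762) with its libraries mixed. The falls of all 3 NFAT genes ran alongside the fall of the B cell and myeloid lists, and the part of those cells in them was not tested.

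Within the family, Nfatc1 held a smaller and Nfatc3 a larger share in every TCF-1 cKO library than in any WT library of the same stage, a difference too small in n to pass a test. Nfatc1 held 53.3% to 78.7% of the summed NFAT TPM in the WT post-transplant libraries and 26.0% to 45.3% in the TCF-1 cKO ones, and Nfatc3 held 11.9% to 33.0% and 42.6% to 55.7%. The same order was seen before transplant, with Nfatc1 at 54.6% to 64.1% in WT and 41.1% to 49.7% in TCF-1 cKO. The libraries did not overlap in any of these comparisons, for which the two-sided exact permutation test gave p = 0.1, the smallest that 3 libraries against 3 allow (adjusted over 24 such tests p = 0.185). The shares carry no offset for GC content, which was 54.3% for Nfatc1 and 45.5% for Nfatc3. With the offset for GC content and length given further on, their day 7 changes of −2.49 and −0.23 were −1.56 and −1.01. The part of GC content in the shares was not tested. Among its 7 annotated transcripts, Nfatc3-201 held 37.4% to 47.6% of the Nfatc3 TPM before transplant and 51.0% to 78.2% at day 7, also without overlap in both genotypes (exact permutation p = 0.1, adjusted over 32 such tests p = 0.32).

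**Figure D3:**
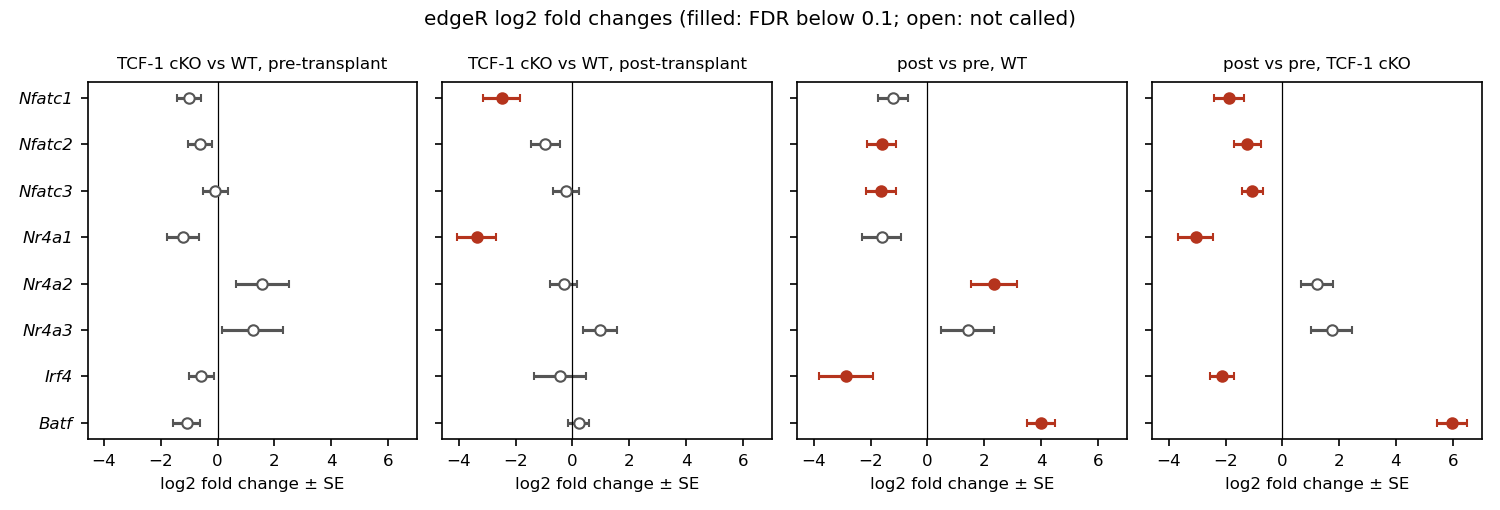
edgeR log2 fold change ± SE (x axis) of the 8 genes in 4 comparisons of 3 libraries against 3, filled where the adjusted p over all genes was below 0.1. Filled points are 0, 2, 5 and 6 of the 8 genes from left to right, and Batf stands farthest right after transplant, at 3.999 in WT and 5.98 in TCF-1 cKO.

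Upstream of NFAT, some genes of calcium entry were lower in TCF-1 cKO cells at day 7, where 15.4% of all genes were lower, and most of these calls ended with the offsets for GC content. Of 12 genes of store-operated calcium entry and calcium release, 11 were tested, 5 were lower (Orai1, Orai2, Orai3, Stim1 and Itpr3) and 0 higher, with a median log2 fold change of −1.77 against 0.15 over all genes. Orai1, the pore of the calcium channel, was at 172, 205 and 36.5 CPM in WT and 22.8, 19.1 and 16.9 CPM in TCF-1 cKO (change −3.15, SE 0.72, edgeR adjusted p = 0.0448). Stim1, its calcium sensor in the endoplasmic reticulum, was at 118, 286 and 59.7 CPM in WT and 33.6, 32.1 and 23.6 CPM in TCF-1 cKO, and Orai3 fell by 3.23 (SE 0.68, adjusted p = 0.0448). With the offsets Orai1 was at −0.83 and −0.60, and of the 5 genes only Orai3 stayed called. For these genes, as for Nfatc1 and Nr4a1, WT post-transplant replicate 3 lay closest to the TCF-1 cKO libraries. Of 13 calcineurin, calmodulin and inhibitor genes 3 were lower and 0 higher, all 3 of them inhibitors: Cabin1 (−2.86, SE 0.68, adjusted p = 0.0450), Rcan1 (−2.62, SE 0.81) and Rcan3 (−2.37, SE 0.79), the calcineurin subunits themselves not being called. Among 10 genes of the kinases that send NFAT back to the cytoplasm, and of their partners, 2 were lower, Dyrk1b (−3.60, SE 0.89) and Gsk3a (−2.67, SE 0.71), and 0 higher. Both counts are read beside the 15.4% of all genes, and none of these 5 calls was kept with either offset, Gsk3a being at −0.46 and −0.40. Nfat5 and Nfatc4, the other NFAT family genes, were not called (changes 0.01 and 1.25).

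In CPM with TMM factors the NR4A genes did not move together. Nr4a1 (ENSMUSG00000023034, GRCm38 chromosome 15, 101254269 to 101274795, plus strand), also known as Nur77, is the immediate early gene most used to read out T cell receptor signaling, and without an offset for GC content it had the largest estimated genotype difference of the 8 genes at day 7. At day 7 it was at 34.7, 50.9 and 15.9 CPM in WT and at 6.30, 3.68 and 2.22 CPM in TCF-1 cKO, where the estimated counts were 72, 47 and 36. The groups did not overlap, and the TCF-1 cKO level was 10.4-fold lower (log2 fold change −3.37, SE 0.68, edgeR adjusted p = 0.0448). Before transplant Nr4a1 was at 36.0, 77.5 and 149 CPM in WT and 26.8, 16.9 and 56.9 CPM in TCF-1 cKO, with overlap (−1.22, SE 0.57, adjusted p = 0.283). It fell by 3.05 (SE 0.61, adjusted p = 0.00543) from before transplant to day 7 in TCF-1 cKO, and this call held in all 18 alternative analyses. In WT the change of Nr4a1 was −1.61 (SE 0.68, adjusted p = 0.148), with overlap. The difference between the genotypes in this change, the interaction, was −1.68 (SE 0.91, adjusted p = 0.371).

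Nr4a2 (ENSMUSG00000026826, chromosome 2, 57106830 to 57124003, minus strand) and Nr4a3 (ENSMUSG00000028341, chromosome 4, 48045153 to 48086447, plus strand) were the lowest of the 8 genes before transplant. Nr4a2 was at 1.69, 2.28 and 0.811 CPM in WT before transplant and 5.87, 9.52 and 14.4 CPM at day 7 (change 2.35, SE 0.81, adjusted p = 0.0837), a call that ended when any 1 library was left out (adjusted p = 0.105 to 0.228). In TCF-1 cKO it was at 5.95, 3.84 and 2.03 CPM before and 11.5, 6.90 and 9.52 CPM after (1.22, SE 0.58, adjusted p = 0.144), and on the scale of library totals the change had the opposite sign, −0.46, as did its mean TPM, 3.77 before and 1.51 at day 7. Nr4a3 was at 0.723, 2.17 and 0.844 CPM in WT before transplant and 2.26, 2.73 and 7.43 CPM at day 7, and at 1.05, 1.44 and 5.55 CPM and then 6.91, 6.74 and 13.4 CPM in TCF-1 cKO. Its mean TPM went the other way, from 1.20 to 0.615 in WT and from 2.78 to 0.824 in TCF-1 cKO. Neither change of Nr4a3 passed edgeR's test (1.42, adjusted p = 0.360, and 1.74, adjusted p = 0.106). In TCF-1 cKO after transplant the alternative tests limma and DESeq2 each called all 8 genes, with Nr4a2 and Nr4a3 higher. Between genotypes at day 7 Nr4a2 differed by −0.31 (SE 0.48) and Nr4a3 by 0.95 (SE 0.60). Within the family Nr4a1 held 93.0% to 98.8% of the summed NR4A TPM in WT before transplant, 54.1% to 84.8% in WT at day 7 and 15.2% to 32.4% in TCF-1 cKO at day 7, while Nr4a2 held 44.5% to 51.8% in the last group. For either share the day 7 genotypes gave exact permutation p = 0.1 (adjusted over 24 such tests p = 0.185). The shares carry no offset for GC content, which was 56.1% for Nr4a1 and 48.6% for Nr4a2. With the offset for GC content and length the day 7 changes of −3.37 and −0.31 were −1.81 and −0.80. Nr4a2-202, a coding transcript, held 54.0% to 79.6% of the Nr4a2 TPM in TCF-1 cKO before transplant and 0% to 44.2% at day 7 (exact permutation p = 0.1, adjusted p = 0.32), at few counts.

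The promoters of the 3 NR4A genes are shown because these genes share an immediate early class but moved differently in CPM with TMM factors. By mean TPM all 3 fell in TCF-1 cKO, Nr4a1 from 25.4 to 0.828, while in WT Nr4a2 rose from 0.914 to 1.57. The windows are the bases before the RefSeq start (GRCm38.p6), up to the first base that a GENCODE exon of the gene covers, written 5′ to 3′ on the strand of the gene, at chr15:101266596-101266845 (plus strand), chr2:57124004-57124253 (minus strand) and chr4:48045055-48045152 (plus strand). Capitals mark matches on either strand to TGACG, the core of the cAMP response element bound by CREB and ATF proteins, and to GGAAA, the NFAT core.
Nr4a1: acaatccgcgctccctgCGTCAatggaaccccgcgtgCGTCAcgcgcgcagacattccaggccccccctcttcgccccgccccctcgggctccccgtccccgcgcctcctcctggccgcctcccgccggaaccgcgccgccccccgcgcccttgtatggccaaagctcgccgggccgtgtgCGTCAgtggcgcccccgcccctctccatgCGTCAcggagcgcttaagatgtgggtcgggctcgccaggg
Nr4a2: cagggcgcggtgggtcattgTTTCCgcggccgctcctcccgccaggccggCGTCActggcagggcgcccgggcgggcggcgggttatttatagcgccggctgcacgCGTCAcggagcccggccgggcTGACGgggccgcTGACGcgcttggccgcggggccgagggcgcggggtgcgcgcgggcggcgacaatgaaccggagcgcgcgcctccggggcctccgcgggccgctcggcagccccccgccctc
Nr4a3: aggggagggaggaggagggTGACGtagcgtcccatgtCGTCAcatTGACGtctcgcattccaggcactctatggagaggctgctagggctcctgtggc
TGACG occurred 4 times in the 250 bases of Nr4a1, 4 times in the 250 bases of Nr4a2 and 3 times in the 98 bases of Nr4a3. It occurs at least once in 17.8% of all 32851 RefSeq promoter windows of 250 bases and in 5.22% of windows cut to the 98 bases of Nr4a3. GGAAA was found once in Nr4a2 and in 55.6% of all windows. No match was found in these 3 windows for the full element TGACGTCA, the AP-1 site TGANTCA, the TCF/LEF core CTTTGA or the NR4A element AAAGGTCA.

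Some other immediate early genes were lower at day 7 as Nr4a1 was, where 15.4% of all genes were lower. Most of these calls ended with the offsets for GC content. The list of immediate early and heat shock genes that can rise while cells are handled has 11 genes, 9 of them tested between genotypes at day 7. TCF-1 cKO cells had 5 of these lower and 0 higher. Ier2 was lower by 3.20 (SE 0.76, edgeR adjusted p = 0.0448) and Dusp1 by 2.39 (SE 0.59, adjusted p = 0.0459). With the offsets Ier2 was at −0.83 and −0.60 (adjusted p = 0.224 and 0.358) and Dusp1 at −1.70 and −1.28 (adjusted p = 0.101 and 0.156). Of the 5 calls 1 was kept, that of Btg2. The same list summed to 2419 to 4475 CPM in WT and 3598 to 6646 CPM in TCF-1 cKO at day 7, in which Hspa8, the most abundant (change 0.70, adjusted p = 0.301), takes most of the sum, and Hspa1a was at 0 in the TCF-1 cKO libraries. From before transplant to day 7 WT cells had 4 of 11 lower and 1 higher, and 4 of the 9 tested fell and 2 rose without TCF-1. Over all genes tested 10.3% were lower and 9.7% higher in WT, and 16.8% and 19.7% in TCF-1 cKO. The part of cell handling in the level of Nr4a1 was not tested.

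Irf4 (ENSMUSG00000021356, GRCm38 chromosome 13, 30749226 to 30766976, plus strand) fell with the transplant in both genotypes. It was at 68.8, 43.3 and 59.6 CPM in WT before transplant and at 3.23, 1.25 and 24.9 CPM at day 7, a fall of 2.88 (SE 0.95, edgeR adjusted p = 0.0720). The stages did not overlap, but the 3 WT post-transplant libraries were spread widely, and without replicate 3, the library with a low Tcf7, the fall was 4.68 (adjusted p = 0.00211), while leaving out any other 1 library ended the call (adjusted p = 0.122 to 0.284). In TCF-1 cKO cells Irf4 went from 23.9, 35.4 and 39.8 CPM to 6.91, 7.13 and 8.77 CPM, a fall of 2.13 (SE 0.41, adjusted p = 0.00467) that was called in all 18 alternatives. Between genotypes the change was −0.57 (SE 0.43, adjusted p = 0.465) before transplant, without overlap, and −0.45 (SE 0.91, adjusted p = 0.771) at day 7, with overlap. Without WT post-transplant replicate 3 the day 7 difference was 1.31 in the other direction (adjusted p = 0.215) and the interaction of Irf4 was called at 2.55 (adjusted p = 0.0724). B cells and plasma cells also express Irf4, and beside its fall the plasma cell list, 6 genes, went from 199 to 1469 CPM before transplant to 55.6 to 172 CPM at day 7. Spib and Spi1, ETS partners of IRF4 in B and myeloid cells, fell by 6.27 (SE 0.68) and 5.37 (SE 0.98) in WT. The part of these cells in the level of Irf4 was not tested.

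Batf (ENSMUSG00000034266, GRCm38 chromosome 12, 85686669 to 85709087, plus strand) showed the largest change of the 8 genes, a rise after transplant in both genotypes. In WT it was at 33.6, 45.0 and 36.4 CPM before transplant and at 511, 806 and 916 CPM at day 7, 16.0-fold higher (log2 fold change 3.999, SE 0.49, edgeR adjusted p = 0.00125). In TCF-1 cKO it went from 10.2, 11.7 and 26.1 CPM to 1224, 825 and 994 CPM, 63.1-fold higher (5.98, SE 0.52, adjusted p = 0.000119). Both calls held in all 18 alternatives, with changes of 3.03 to 4.46 in WT and 4.46 to 6.63 in TCF-1 cKO. Mean TPM, which carries no TMM factors, rose by a smaller factor, from 72.1 to 488 in WT and from 39.7 to 645 in TCF-1 cKO. Beside the rise of Batf the CD8 T cell list rose as well, with 8 of 8 genes called higher in both genotypes and a median of 2.49 in WT and 3.84 in TCF-1 cKO, and its part in the level of Batf was not tested. Before transplant Batf was lower in all 3 TCF-1 cKO libraries (−1.09, SE 0.48, adjusted p = 0.271), where the CD8 T cell list was also lower, with a median of −1.39 and 0 of 8 genes called. At day 7 the genotypes overlapped (0.21, SE 0.36, adjusted p = 0.725). The interaction was 1.71 (SE 0.65, unadjusted p = 0.0185, adjusted p = 0.258). Batf-201 held 79.4% to 99.8% of its TPM before transplant and 99.7% to 100% at day 7.

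The Batf promoter is shown as that of the gene with the largest change. At chr12:85686470-85686668 of GRCm38.p6 (plus strand), from RefSeq and cut before the first GENCODE exon, it reads as follows, with the same capitals.
Batf: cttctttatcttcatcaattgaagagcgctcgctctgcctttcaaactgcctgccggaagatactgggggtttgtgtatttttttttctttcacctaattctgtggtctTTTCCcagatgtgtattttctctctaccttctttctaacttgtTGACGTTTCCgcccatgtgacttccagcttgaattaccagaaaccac
The NFAT core occurred 2 times in these 199 bases, both on the reverse strand, and the cAMP response element core 1 time, directly beside the second NFAT core. In windows of this length the NFAT core is found in 48.4% and the other in 12.6% of all promoters. The other motifs searched for in the NR4A windows were not found. A promoter window was at hand for 7 of the 8 genes.

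**Figure D4:**
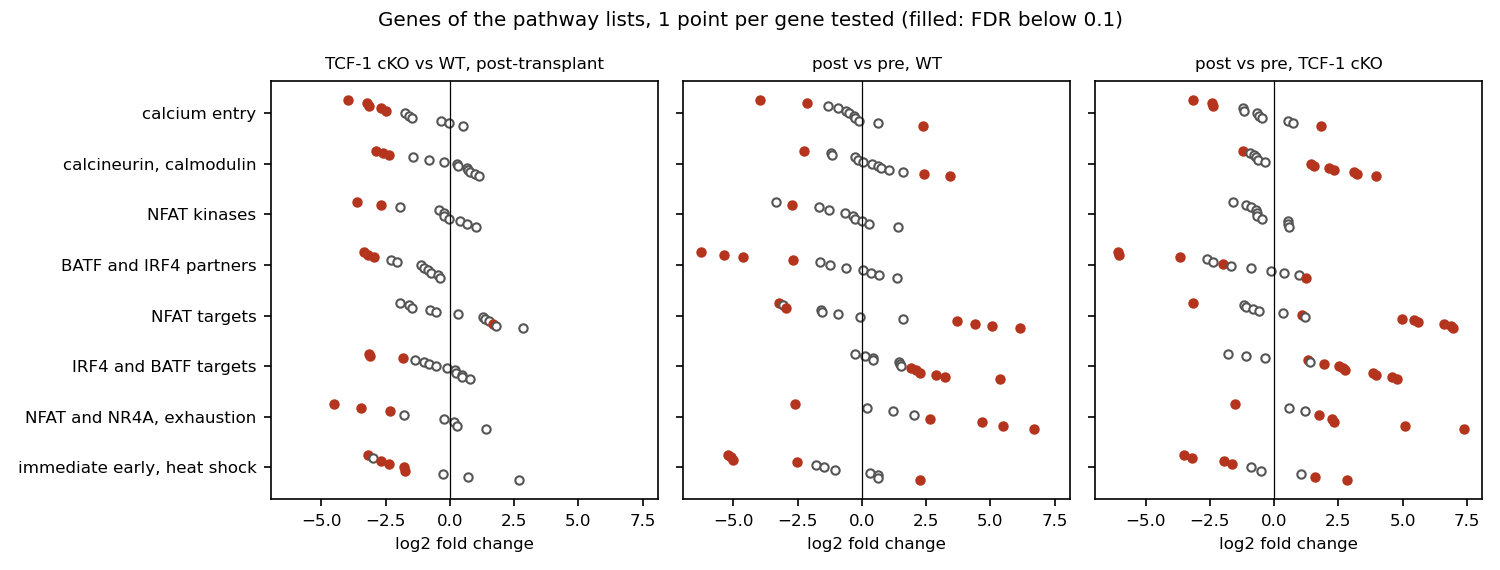
edgeR log2 fold change (x axis) of each tested gene of 8 pathway lists, in TCF-1 cKO versus WT at day 7 and in post- versus pre-transplant cells of each genotype, filled where the adjusted p was below 0.1. At day 7 24 filled points lie left of 0 and 1, Ifng, lies right of it, where 15.4% of all genes were lower and 2.51% higher. After transplant in WT the NFAT targets have a median of −0.51 and the IRF4 and BATF targets one of 1.51.

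Of the partners of BATF and IRF4, 0 rose in WT and 1 in TCF-1 cKO, against 9.7% and 19.7% of all genes tested. Of all genes 10.3% fell in WT and 16.8% in TCF-1 cKO. Of 14 such genes 11 were tested in WT, and 4 fell and 0 rose after transplant, among them Fos (−4.65, SE 1.05, edgeR adjusted p = 0.0170) with Spib and Spi1. In TCF-1 cKO 4 of 12 fell, among them Jun (−3.65, SE 0.82), and 1 rose, Ikzf3 (1.25, SE 0.33), which was at −0.37 on the scale of library totals. At day 7 the AP-1 genes Junb (−3.20, SE 0.69) and Jun (−3.34, SE 0.93) and the IRF4 relative Irf8 (−2.94, SE 0.74) were lower in TCF-1 cKO, 3 of 11 tested with 0 higher. Over all genes 15.4% were lower, and none of these 3 calls was kept with either offset for GC content. Under them Junb was at −0.91 and −0.60 and Irf8 at −0.89 and −0.69. Junb and Jun pair with BATF.

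Genes known as targets of these factors moved in both directions after transplant. Over the same stages the CD8 T cell list rose by a median of 2.49 in WT and 3.84 in TCF-1 cKO. The B cell list had medians of −7.07 and −5.72. The part of these cells in the changes of this paragraph and the 1 before was not tested. The counts of this paragraph are read beside all genes tested, of which 9.7% rose and 10.3% fell in WT. In TCF-1 cKO 19.7% of all genes rose and 16.8% fell. Of 16 NFAT targets 4 of 12 tested rose in WT and 7 of 14 in TCF-1 cKO. Tnfrsf9, the costimulatory receptor 4-1BB, rose by 6.14 (SE 0.61) in WT and 6.88 (SE 0.55) in TCF-1 cKO. Fasl, a death ligand of killer cells, rose by 4.40 (SE 0.76) and 5.45 (SE 0.41), Csf2, encoding GM-CSF, rose by 5.06 (SE 1.01) in WT, and Il2ra, the IL-2 receptor alpha chain, by 4.99 (SE 0.52) in TCF-1 cKO. Egr3, a zinc finger factor switched on by NFAT, fell by 2.95 (SE 0.86) and 3.14 (SE 0.91), and Cd40lg, which CD4 T cells express most, fell by 3.23 (SE 1.00) in WT. Of 13 genes downstream of IRF4 and BATF 6 rose in WT and 9 in TCF-1 cKO and 0 fell, led by Id2 (2.27, SE 0.52, and 3.98, SE 0.39), with Tbx21 (2.89, SE 0.67) and Bhlhe40 (2.10, SE 0.55) in WT and Icos (4.60, SE 0.60) and Hif1a (2.52, SE 0.36) in TCF-1 cKO. Of 8 genes of the exhausted state 4 rose in WT and 5 in TCF-1 cKO, among them Pdcd1, encoding PD-1 (6.69, SE 0.59, and 7.41, SE 0.84), with Tigit (4.66, SE 0.69) and Lag3 (5.48, SE 0.83) in WT and Havcr2 (5.11, SE 0.64) and Tox (2.32, SE 0.42) in TCF-1 cKO. Cd38 fell in both, by 2.61 (SE 0.51) and 1.54 (SE 0.37). Calm3, a calmodulin gene, rose by 3.42 (SE 0.53) in WT and 3.97 (SE 0.48) in TCF-1 cKO, where Calm2 (3.24, SE 0.46) rose too. In the calcineurin list 2 of 13 rose and 1 fell in WT, Fkbp1a (2.41, SE 0.51) being the other that rose and the catalytic subunit Ppp3ca (−2.26, SE 0.61) the one that fell, and 7 rose and 1 fell, Cabin1 (−1.22, SE 0.42), in TCF-1 cKO. Of the calcium entry list 2 of 11 fell and 1 rose in WT, and 3 fell in TCF-1 cKO. The calcium release channel gene Itpr2 fell by 3.97 (SE 0.60) in WT and 2.43 (SE 0.44) in TCF-1 cKO, and Itpr1 by 2.14 (SE 0.59) in WT. Orai1 rose in WT by 2.38 (SE 0.77), a call that ended with the GC content offset (adjusted p = 0.129). In TCF-1 cKO Orai3 fell by 2.37 (SE 0.72), Itpr3 by 3.14 (SE 1.06) and Nfat5 by 2.27 (SE 0.41). Of the NFAT kinase list only Dyrk2 was called after transplant, lower by 2.73 (SE 0.63) in WT. These changes all passed edgeR's test at an adjusted p below 0.1 without an offset. Of those named, Itpr3 in TCF-1 cKO lost its call under both offsets (adjusted p = 0.163 and 0.208), and Itpr1 in WT (adjusted p = 0.222) and Cabin1 in TCF-1 cKO (−0.24, adjusted p = 0.597) under the weighted one.

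Between the genotypes at day 7 the target lists were split, in a comparison where 15.4% of all genes were lower and 2.51% higher. Of 12 NFAT targets tested 1 was called, Ifng, encoding interferon gamma, which was at 34.3, 27.8 and 75.3 CPM in WT and 107, 203 and 191 CPM in TCF-1 cKO (1.70, SE 0.52, edgeR adjusted p = 0.0773; with the offsets for GC content 1.04 and 0.77, adjusted p = 0.183 and 0.293), with Nfatc1 lower in the same libraries. Of 13 genes downstream of IRF4 and BATF 3 were lower, Tbx21 (−3.10, SE 0.68), encoding T-bet, Slc2a1 (−3.16, SE 0.81), encoding the glucose transporter GLUT1, and Bhlhe40 (−1.82, SE 0.52). Of 8 genes of the exhausted state 3 were lower, Lag3 (−4.53, SE 0.88), Tigit (−2.34, SE 0.62) and Tox2 (−3.47, SE 1.16), and 0 higher. With the offsets Tbx21 was at −0.96 and −0.63 (edgeR adjusted p = 0.140 and 0.270) and Tox2 at −0.70 and −0.78 (adjusted p = 0.629 and 0.618). Slc2a1 also lost its call under both (adjusted p = 0.144 and 0.133), and Tigit under the first alone (adjusted p = 0.1001). Lag3 was at 284, 657 and 86.5 CPM in WT and 28.7, 7.84 and 20.1 CPM in TCF-1 cKO. Before transplant 0 of the 93 tested genes of these lists were called by edgeR or limma, 12 by DESeq2, and 20 had an unadjusted p below 0.05. The changes of the 2 genes of highest level in each list lay between −2.13 (Tbx21, SE 0.51) and 1.62 (Nfat5, SE 0.43).

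The calls over the 8 genes are given beside those over all genes. Before transplant 0 of 8 differed between genotypes by edgeR, limma or DESeq2, 2 of them, Nfatc1 and Batf, with an unadjusted p below 0.05, against 7 of 18757 genes called (0.0373%). At day 7 2 of 8 were lower, against 15.4% of the 16026 genes tested, and 0 were higher, against 2.51%. From before transplant to day 7 3 of 8 fell and 2 rose in WT, against 10.3% and 9.7% of 16790 genes, and 5 fell and 1 rose in TCF-1 cKO, against 16.8% and 19.7% of 18535 genes. For these stage changes limma and DESeq2 each called 5 of 8 genes in WT and 8 of 8 in TCF-1 cKO. The interaction called 0 of 8, 1 of which, Batf, had an unadjusted p below 0.05, and 0.00465% of 21526 genes, and limma and DESeq2 called 0 of 8 as well. Libraries did not overlap for 4 of 8 genes between genotypes before transplant (30.3% of all genes), 3 of 8 at day 7 (40.7%), 6 of 8 between stages in WT (32.1%) and 8 of 8 in TCF-1 cKO (46.9%). The median log2 fold change of the 8 genes was −0.59, −0.38, −1.41 and −1.15 in these 4 comparisons, against 0.05, 0.15, −0.30 and −0.29 over all genes. Comparisons that share a group share its libraries.

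The day 7 calls of Nfatc1 and Nr4a1 depended on the libraries and on GC content. Leaving out any 1 library other than WT post-transplant replicate 3 left 0 of 8 genes and 0 to 2 of all genes called, whereas without that library 5299 genes were called, and Nfatc1 (−2.84, edgeR adjusted p = 0.0125) and Nr4a1 (−3.80, adjusted p = 0.00303) with them. Without the library labelled CD4 in 1 place Nr4a1 was at −3.41 (adjusted p = 0.131) and Nfatc1 at −2.18 (adjusted p = 0.140). Across the 16026 genes the day 7 genotype change fell with the GC content of the transcripts (Spearman's rho −0.55, a correlation across genes, which are not independent replicates). Nfatc1 at 54.3% and Nr4a1 at 56.1% GC lay above the median of 49.7%. With an offset for GC content and length Nr4a1 was at −1.81 (SE 0.46, adjusted p = 0.0921) and Nfatc1 at −1.56 (SE 0.52, adjusted p = 0.137). With GC content and length weighted by transcript abundance, an offset added after seeing the data, they were at −1.47 (adjusted p = 0.127) and −1.53 (adjusted p = 0.152), so that 0 of 8 genes remained called. Of the list genes lower at day 7, Orai3, Lag3, Bhlhe40 and Btg2 were called under both offsets. The same offsets raised the change of Batf at day 7 to 1.41 (adjusted p = 0.120) and 1.37 (adjusted p = 0.148), and turned that of Nfatc2 to 0.46 and 0.53. In WT after transplant they left Batf and Nr4a2 called, ended the calls of Nfatc2, Nfatc3 and Irf4 (adjusted p = 0.127, 0.282 and 0.103 under the first) and called Nr4a1 (−1.72, adjusted p = 0.0518). In TCF-1 cKO after transplant they left Nfatc3, Nr4a1, Irf4 and Batf called, ended the calls of Nfatc1 and Nfatc2, and called Nr4a2 (1.53, adjusted p = 0.0529, and 1.48, adjusted p = 0.0692) and Nr4a3 (2.72, adjusted p = 0.0120, and 2.67, adjusted p = 0.00991) higher.

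**Figure D5:**
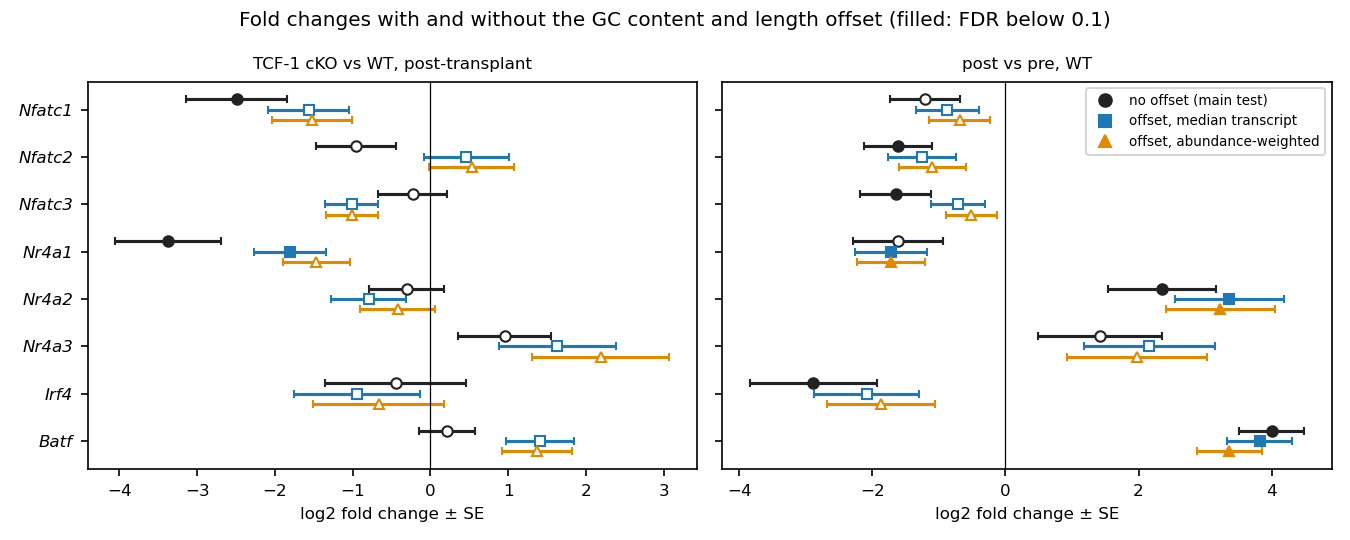
edgeR log2 fold change ± SE (x axis) of the 8 genes without an offset (circles) and with the GC content and length offset from the median transcript (squares) or weighted by abundance (triangles), for the genotypes at day 7 and the stages in WT, filled where the adjusted p was below 0.1. Nr4a1 moves from −3.37 to −1.81 and −1.47 on the left, and Batf stays between 3.36 and 3.999 on the right.

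Over the 12 libraries, the genes most like each of the 8 were set by Pearson's r of log2 CPM among 9147 genes with a mean of at least 10 CPM. The points share the 4 groups and the scaling of the libraries, so that r mostly follows the stages. For Batf these were Ndufb11 (r = 0.997), a subunit of mitochondrial complex I, and S100a13 (0.997), and for Irf4 Rnf122 (0.978) and Zfp831 (0.973). Nr4a1 was most like Irf5 (0.962) and Klhl18 (0.962), and Nfatc1 most like Fbrs (0.963) and Atxn2l (0.962), all 4 with their lowest group mean in TCF-1 cKO at day 7. For Nfatc2 these were Plekhg2 (0.943) and Smim14 (0.943), for Nfatc3 Evi2b (0.960) and Birc6 (0.957), for Nr4a2 Hist1h1d (0.960) and Il1rl1 (0.942), and for Nr4a3 Psmc3ip (0.952) and Csrp2 (0.936).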

How the data were processed

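RNA was measured in 12 libraries of sorted mouse CD8 T cells in 4 groups of 3, grouped by title, prepared with the SMART-Seq HT and Nextera XT kits. Per the labels and file headers, the authors ran Kallisto 0.46.2 and deposited an estimated count and a TPM value for each of 117497 transcripts. TPM values deposited by the authors are scaled for effective length and depth, and the estimated counts are not normalized. The submitters' processing notes name mm9, and the transcript release is not given in the sources used here. Transcripts were joined without version numbers to GENCODE M21 (GRCm38), which placed 99.5% to 99.7% of the counts of a library. Gene counts were sums of estimated counts, rounded to whole numbers. edgeR 4.0.16 (TMM, filterByExpr, quasi-likelihood test) was fitted on all genes for each pair of groups and for the interaction, with Benjamini-Hochberg adjustment and an FDR of 0.1. The SE was taken from the log2 fold change and F. Family and transcript shares were compared with the exact permutation test, two-sided. Overlap means that the ranges of the 3 libraries of each group cross.

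The alternatives were limma 3.58.1 with voom, DESeq2 1.42.0, DESeq2 size factors, library totals, no filter, counts scaled from TPM, a loess offset for GC content and length (span 0.4, degree 2), a replicate block without and with the offset, 1 fit over all 12 libraries, an FDR of 0.05 and leaving out each library. An offset weighted by transcript abundance was added after seeing the data. The tests were checked on simulated counts, which held no GC content trend, no differences in cell types between groups and no deviating library. That check does not bear on these. The 8 genes and the gene lists were chosen with earlier results of these data known. Named were the 8 genes, Tcf7, Cd8a and Cd4, and of each list up to 3 genes per direction and comparison with the smallest p among those called (with none called, up to 2 of highest level), and the 2 genes most like each of the 8 over the 12 libraries. Floors of 3 counts cover counting error only, since reads carry no molecular identifiers. R 4.3.3 was used. A few genes named by this rule are left out and not reported here.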

Additional observations from a re-analysis of the deposited data

How the results depend on the processing

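Between genotypes before transplant, 7 of all genes were called by the test as reported. The count was 2 at an FDR of 0.05, 2 with limma-voom, 1451 with DESeq2, 3 with DESeq2 size factors, 12 with library totals, 619 without a filter, 13 with the GC content and length offset, 0 with the replicate block, 18 with block and offset, 3 in 1 fit over all 12 libraries, and 0 to 2739 without 1 library. Of the 8 genes 0 to 2 were called without 1 library: Batf and Nr4a1 without TCF-1 cKO replicate 3. At day 7 the 8 genes gave 1 call with the offset, 0 with the weighted offset, 0 with block and offset and 0 to 2 without 1 library. All genes gave 1396 calls at an FDR of 0.05, 4524 with DESeq2, 966 with the offset, 562 with the weighted offset, 2 with block and offset and 0 to 5299 without 1 library.

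From before transplant to day 7 in WT, the 8 genes gave 1 call at an FDR of 0.05, 2 without a filter, 3 with counts scaled from TPM, 3 with either offset and 1 to 3 without 1 library. All genes gave 1579 to 4156 calls without 1 library. In TCF-1 cKO they gave 12268 with library totals and 5242 to 7114 without 1 library. The 8 genes there gave 4 to 6 without 1 library, and 8 with limma-voom and with DESeq2. The interaction called 1713 genes with DESeq2, 5 with library totals, 580 without a filter, 2 with either offset, 0 with the replicate block, 2 with block and offset and 0 to 2093 without 1 library, and 0 to 1 of the 8 genes.

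Some log2 fold changes changed sign. With library totals, Nfatc3 was at 0.30 before transplant and 0.13 at day 7, where 1 fit over all libraries gave 0.0133, Nr4a2 was at 0.0689 at day 7 and at −0.46 after transplant in TCF-1 cKO, and Ikzf3 at −0.37. At day 7 Nfatc2 was at 0.46, 0.53 and 0.51 with the offset, the weighted offset and block and offset, and Irf4 at 0.44 with limma-voom and 0.43 with the block. The interaction of Nfatc2 was −0.00697 with limma-voom, −0.0434 with DESeq2, −0.0421 with its size factors, −0.28 with library totals, −0.0875 without a filter and −0.22 with counts scaled from TPM. That of Nfatc3 was −0.17 with library totals, −0.14 and −0.24 with the offsets and −0.19 with block and offset, that of Irf4 −0.0831 with library totals, and that of Nr4a3 −0.13, −0.12, −0.19, −0.14 and −0.62 with DESeq2, its size factors, library totals, no filter and counts scaled from TPM. Without 1 library the ranges were −0.35 to 0.11 for Nfatc3 before transplant, −0.98 to 1.31 for Irf4 and −0.0450 to 0.28 for Batf at day 7, and in the interaction −0.20 to 0.47 for Nfatc2, −0.0537 to 0.66 for Nfatc3, −0.64 to 1.03 for Nr4a3 and −0.0663 to 2.55 for Irf4. The cause of these shifts was not tested.

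Same-numbered libraries did not deviate together (r of −0.257 to 0.115 over 18 pairs of libraries, 1 over 0.1). For differently numbered libraries r was −0.112 to 0.197 over 36 pairs. With 3 libraries per group this cannot exclude that the numbers pair the samples, and the main test was fitted without pairing. The replicate block called 2038 genes at day 7, 3097 in WT and 5478 in TCF-1 cKO after transplant, and 0, 2, 4, 5 and 0 of the 8 genes in the 5 comparisons. Depth limits the lowest genes, since 3 counts are up to 0.664 CPM on the scale of library totals in the TCF-1 cKO pre-transplant libraries. That value carries no TMM factors and cannot be set directly against the gene levels in CPM, which do.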
